A study of Mus musculus with 2 samples.

Results

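Interferon-stimulated genes are the transcripts that cells raise after sensing interferon, and the ones described here are those outside the oligoadenylate synthetase, interferon-inducible GTPase, interferon regulatory factor, Stat and nucleic acid sensor families. They were measured in the CD8α+ and CD8α- conventional dendritic cells (DCs) of mouse spleen. The list held 38 genes, and a gene was represented by 1 probe set annotated to that gene alone, the brightest by the mean of both arrays where there were several. Of the 38, 35 had such a probe set, out of 18194 genes on the array that did. Isg15 and Ifi205 were covered by probe sets shared with other genes, which are described apart, and Ifi44 was not analysed here.

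Both populations came from C57BL/6 mice that carried B16 melanoma cells secreting Flt3 ligand, a cytokine that expands DCs, so the tumour and the ligand were shared by both groups. Spleens were taken 10 to 12 days after injection. CD11c+ cells without CD3 or B220 were sorted into CD8α+ cells (CD8+ DCs) and CD8α- cells (CD8- DCs), and neither was stimulated afterwards. The labels do not say how many mice were pooled. Each population was measured on 1 array, so no value has a replicate, no test was made, and a difference cannot be told apart from variation between mice, sorts or hybridisations. Values are log2 RMA signals, and differences are CD8+ minus CD8- on the log2 scale. A gene counted as measured where its higher value reached the median of all values, 3.85, called the floor here. Where the lower value was under the floor, the fold is a lower bound computed against the floor. Signals of different probe sets are not comparable as levels, so genes are set side by side by their differences alone. In sorted populations measured in bulk, fewer expressing cells and less RNA per cell cannot be told apart.

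Type I interferons bind the receptor of Ifnar1 and Ifnar2 and, through the kinases Jak1 and Tyk2, activate a complex of Stat proteins and Irf9. That complex binds the interferon-stimulated response element in the promoters of its target genes. The proteins made from these genes bind viral RNA, edit or degrade it, block membrane fusion and virus release, or modify other proteins. Many of them are also present at a low level without infection, in an amount that depends on the cell type.

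The genes that mark the subsets differed in the direction of the arrays' labels. Of 7 measured CD8+ DC markers, 6 passed 2-fold in favour of CD8+ DCs, as did 3.55% of all measured genes. Cd8a, at 11.29 against 5.15, is among the 6, and its difference was set by the sort on CD8α. All 6 measured CD8- DC markers passed 2-fold in favour of CD8- DCs, as did 5.97% of all measured genes. Itgam (CD11b) was at 2.78 in CD8+ and 7.77 in CD8- DCs. Itgam, Irf4 and Cx3cr1 reached the floor, defined above, in CD8- DCs alone, so their place among the measured markers was set by that population. No neutrophil marker (4 with a probe set) and no erythroid marker (2) reached the floor on either array. Of 7 plasmacytoid DC markers, Tcf4 (5.47 in CD8+, 7.55 in CD8-) and Lair1 (3.91 and 7.74) were higher in CD8- DCs, Ccr9 (8.03 and 5.94) was higher in CD8+ DCs, and Siglech was near the floor on both (3.71 and 4.04). Ly6d (4.19 and 3.94), Cox6a2 (5.45 and 5.39) and Klk1 (5.36 and 5.35) were under 2-fold. The summed linear signal of this list was 436 in CD8+ and 576 in CD8- DCs. Such sums, here and below, add probe sets whose levels are not comparable. The brightest probe sets lead them, and they do not measure the number of cells of a type. Of 3 monocyte markers with a probe set, Ccr2 was higher in CD8- DCs (6.03 and 9.32), Fcgr1 was low on both (4.36 and 4.26, with another probe set at a difference of -1.65) and Chil3 was under the floor on both. The summed signal was 89.9 and 662, nearly all of the second from Ccr2. Of 5 red pulp macrophage markers, Adgre1 (4.63 and 8.22) was higher in CD8- and Hmox1 (6.80 and 5.65) in CD8+ DCs, Vcam1 (5.52 and 4.66, 3 probe sets between 0.42 and 2.49) was under 2-fold and higher in CD8+ DCs, and Spic (3.40 and 3.74) and Cd163 (2.60 and 3.57) were below the floor on both. The summed signal was 199 and 399, most of the second from Adgre1. Among 4 B cell markers, Cd79b was at 3.28 and 6.59, Ms4a1 at 5.74 and 4.99, and Cd79a and Pax5 were below the floor on both arrays. Of the other lists, Cd3e (4.76 and 4.90) and Cd5 (3.95 and 4.87) of 4 T cell markers, Prf1 (4.04 and 4.11) of 4 NK cell markers and Pmel (4.40 and 4.30) of 5 melanoma markers reached the floor. The part of these markers in the interferon-stimulated gene values was not tested.

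Interferon-stimulated genes were in most cases higher in CD8- DCs, and none was 2-fold higher in CD8+ DCs. Of the 35 genes, 34 reached the floor on at least 1 array and Ifi204 (3.55 and 3.67) did not. Ifit1, Rtp4 and Slfn1 reached it in CD8- DCs alone, so that their place among the measured genes was set by the population where they were high. Of the 34, 14 passed 2-fold on the CD8- side, or 41.2%, as did 5.97% of all 11404 measured genes. None of the 34 passed 2-fold on the CD8+ side, as did 3.55% of all measured genes. At 4-fold, 5 genes passed on the CD8- side (Rtp4, Ifitm1, Ifit3, Ifit1 and Ifitm2; 2.1% of all genes) and none on the CD8+ side (0.859% of all genes). At 1.5-fold, 19 genes passed on the CD8- side (11.5% of all genes) and 2, Mx1 and Parp12, on the CD8+ side (8.49% of all genes). In direction alone, 26 members were higher in CD8- DCs, 6 were higher in CD8+ DCs and 2 had the same value on both arrays, while 44.8% of all genes were higher in CD8- DCs. The median difference of the members was -0.70 (quartiles -1.63 and -0.04) and that of all measured genes 0.03 (quartiles -0.24 and 0.26). Without the floor, the 35 genes had a median of -0.68.

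**Figure D1:**
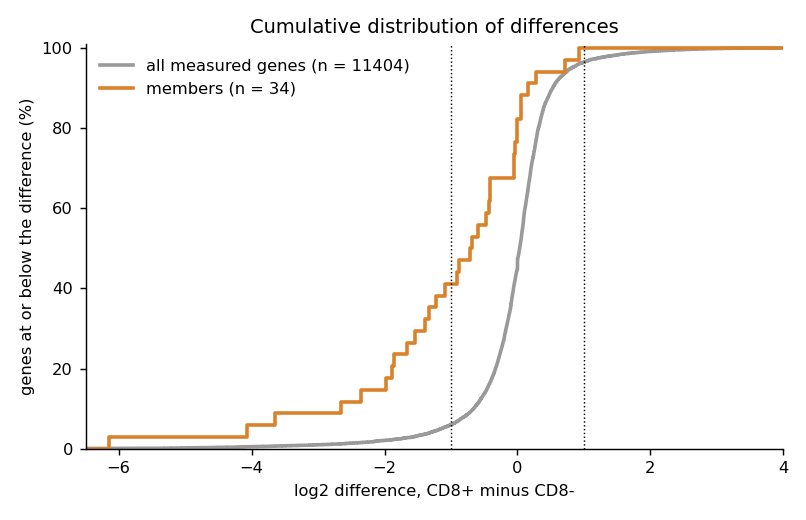
Cumulative percentage of genes (vertical axis) against the log2 difference, CD8+ minus CD8- (horizontal axis), for the 34 measured members and all 11404 measured genes, with 1 array per population and 2-fold marked by dotted lines. The members' curve lies to the left of the other over most of the range, with 41.2% of members and 5.97% of all genes at or beyond 2-fold on the CD8- side.

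The differences among the members ranged from -5.20 for Rtp4, with its CD8+ value raised to the floor, to 0.92 for Mx1. All 3 Ifitm genes, both Ifi27 family genes, 2 of 3 Ifit genes and 3 of 4 Schlafen genes were past 2-fold, whereas none of the 6 measured genes of the ISG15 and ubiquitin group, neither Mx gene and neither speckled-protein gene was. These groups hold 2 to 6 measured genes each, and the share of all measured genes past 2-fold on that side was 5.97%. The only spread available within these arrays is that between probe sets of the same gene, whose pooled SD was 0.30 over 5183 genes with several measured probe sets and 0.24 over the 12 such members. Probe sets below the floor on both arrays were left out of it. Those left out differed from the one used for Rtp4 (-1.22 against -6.15), Slfn1 (-0.18 against -1.40) and Xaf1 (-0.17 against -1.22). For Sp110 (-0.09 against 0.06) and Slfn5 (0.40 against 0.06) they lay closer. The SD does not measure variation between mice or sorts.

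**Figure D2:**
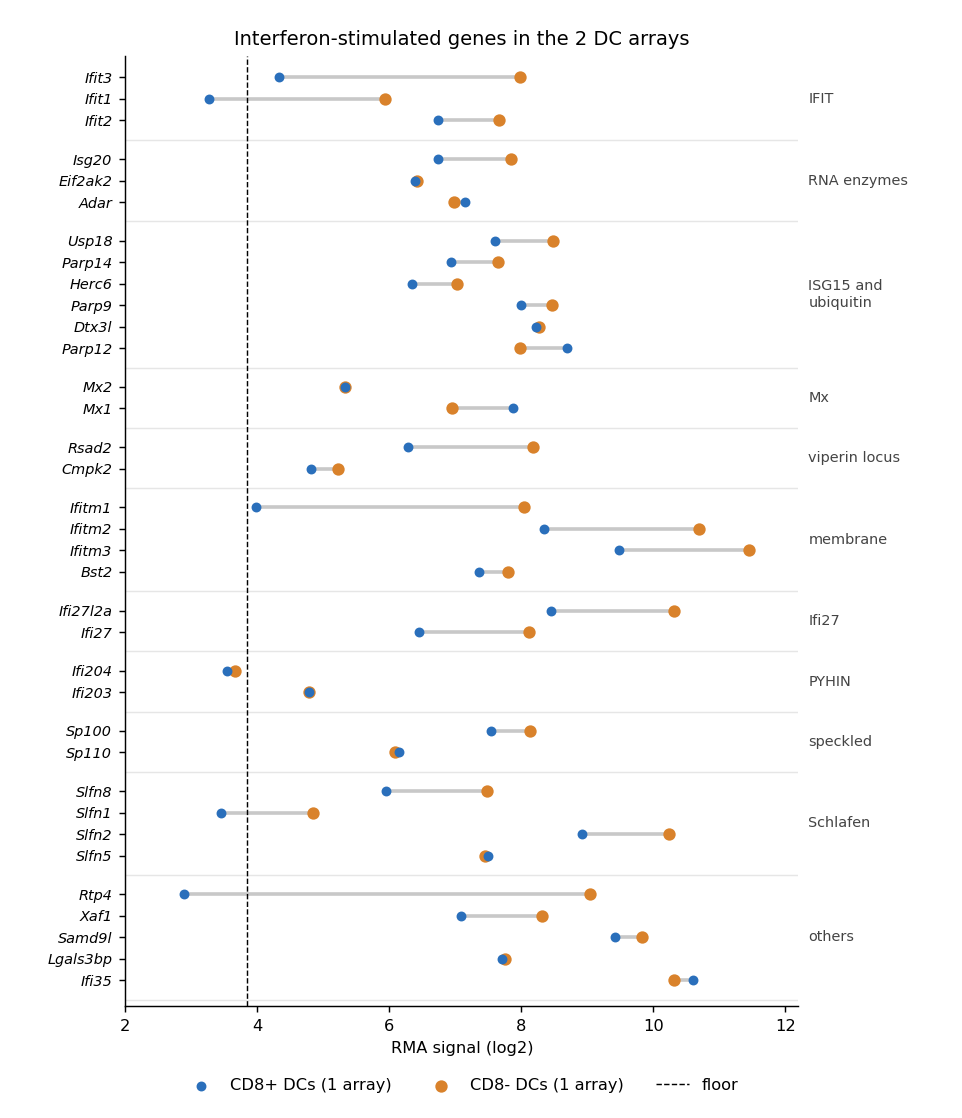
Log2 RMA signal (horizontal axis) of the 35 members with a single-gene probe set, grouped by role, on the CD8+ array (blue) and the CD8- array (orange), with the floor of 3.85 as a dashed line. The CD8- point lies to the right for most genes, by the widest margin for Rtp4 (2.90 and 9.05), and the CD8+ point lies to the right for 6 genes, most clearly Mx1 and Parp12.

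Promoter sequences were at hand for 29 of the 38 genes, from RefSeq on GRCm38.p6. In the 250 bases before each annotated start, the core of the interferon-stimulated response element was searched on both strands, as GAAA, any 2 bases and GAAA. It was found for 10 of the 29 genes (34.5%), taking any start of a gene, and for 3.46% of all 27025 genes in the promoter table. The members were picked as interferon-stimulated genes, so this share describes the list and not the arrays. Of the 11 genes past 2-fold in CD8- DCs with a promoter, 5 held a match (Ifit1, Ifit3, Rsad2, Ifitm2 and Slfn8), and of the 15 measured genes under 2-fold, 3 did (Bst2, Ifi203 and Slfn5). Isg15 and Ifi205 held it too. Ifitm1, the gene with the largest difference of those with a promoter, had no match in this window, and neither had Ifitm3. The gamma-activated site TTCNNNGAA, which reads the same on both strands, was found for 4 of the 29 genes (Ifit2, Isg20, Bst2 and Eif2ak2) and for 8.13% of all genes. A match is a description of the letters and not a binding site.

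The 160 bases next to the start are shown for 6 genes that hold the element, 4 past 2-fold and 2 under it. They run 5′ to 3′ in the direction of the gene and end at the base before its start. Capitals mark the letters matched by the element on either strand, and on the opposite strand it reads TTTC, any 2 bases and TTTC. The stretches are Ifit1 at chr19:34640729-34640888, plus strand, Ifit3 at chr19:34583369-34583528, plus strand, Rsad2 at chr12:26456453-26456612, minus strand, Ifitm2 at chr7:140955962-140956121, minus strand, Bst2 at chr8:71537473-71537632, minus strand, and Slfn5 at chr11:82951942-82952101, plus strand.
Ifit1: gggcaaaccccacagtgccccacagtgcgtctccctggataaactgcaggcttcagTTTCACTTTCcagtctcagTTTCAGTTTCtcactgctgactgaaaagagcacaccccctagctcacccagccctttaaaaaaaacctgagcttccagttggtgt
Ifit3: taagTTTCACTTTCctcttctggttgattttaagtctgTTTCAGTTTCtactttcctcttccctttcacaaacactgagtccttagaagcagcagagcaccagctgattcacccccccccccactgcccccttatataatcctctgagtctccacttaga
Rsad2: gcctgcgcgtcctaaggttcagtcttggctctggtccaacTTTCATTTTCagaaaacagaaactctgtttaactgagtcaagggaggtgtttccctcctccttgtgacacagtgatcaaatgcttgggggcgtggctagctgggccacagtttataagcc
Ifitm2: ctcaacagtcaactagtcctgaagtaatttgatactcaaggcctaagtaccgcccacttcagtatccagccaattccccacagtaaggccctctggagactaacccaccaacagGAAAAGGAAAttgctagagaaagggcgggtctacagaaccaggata
Bst2: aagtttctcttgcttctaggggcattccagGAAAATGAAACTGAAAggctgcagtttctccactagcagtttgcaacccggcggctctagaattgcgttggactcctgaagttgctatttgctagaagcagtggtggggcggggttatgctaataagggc
Slfn5: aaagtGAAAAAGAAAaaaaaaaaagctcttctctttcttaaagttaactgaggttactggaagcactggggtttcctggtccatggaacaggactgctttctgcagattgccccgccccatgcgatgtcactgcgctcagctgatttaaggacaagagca
Ifit1 and Ifit3 each held 2 separate matches, between 104 and 76 bases and between 156 and 113 bases before the start. Bst2, whose difference was -0.43, also held 2 matches, which overlap, between 130 and 115 bases before the start. The single match of Ifitm2 (difference -2.35) lay 46 to 37 bases before the start, that of Rsad2 (-1.88) 120 to 111 bases and that of Slfn5 (0.06) 155 to 146 bases before it. Matches were thus present in genes on both sides of the 2-fold threshold.

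The IFIT proteins bind viral RNA and hold back its translation, and all 3 of their genes were higher in CD8- DCs. Ifit3 was 12.5-fold higher there, with a signal of 4.33 on the CD8+ array against 7.98 on the CD8- array. Ifit1 was at 3.27, below the floor, in CD8+ DCs and at 5.93 in CD8- DCs, at least 4.24-fold higher there. Ifit2 was detected well above the floor on both arrays, at 6.75 in CD8+ and 7.66 in CD8- DCs, and its 1.88-fold difference stayed under the threshold. Each of the 3 was read by 1 probe set, and Ifit genes have close relatives whose cross-hybridisation was not tested.

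Of the 4 genes for membrane proteins that restrict viruses, 3 were past 2-fold in favour of CD8- DCs, as were 5.97% of all measured genes. The IFITM proteins sit in plasma and endosomal membranes and hinder the fusion of viruses with the cell. Ifitm1 was 16.7-fold higher in CD8- DCs, at 8.04, than in CD8+ DCs, where its signal of 3.98 was just above the floor. Ifitm2 was at 8.35 in CD8+ and 10.70 in CD8- DCs (5.10-fold). Ifitm3 was at 9.48 in CD8+ and 11.45 in CD8- DCs (3.93-fold). Ifitm2 and Ifitm3 therefore remained well above the floor in CD8+ DCs, and Ifitm1 was close to the floor there. The genes are similar in sequence, each was read by 1 probe set, and cross-hybridisation between them was not tested. Bst2, which encodes tetherin, the protein that holds budding virus particles at the cell surface, was at 7.37 in CD8+ and 7.80 in CD8- DCs (1.35-fold). Bst2 is also used as a marker of plasmacytoid DCs.

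Viperin, encoded by Rsad2, makes a modified nucleotide that ends viral RNA synthesis. Rsad2 was at 6.29 in CD8+ and 8.18 in CD8- DCs (3.69-fold), and its 3 probe sets differed by -1.99 to -1.28. Cmpk2, its direct neighbour in the genome and a nucleotide kinase gene of mitochondria, was at 4.82 in CD8+ and 5.23 in CD8- DCs (1.33-fold), and its other probe set differed by -0.93. The neighbours thus differed in the same direction, and Rsad2 was past 2-fold on each of its probe sets. The Rsad2 probe sets that do not stand for the gene were close to the floor in CD8+ DCs (3.88 and 3.86), which limits their folds.

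The Ifi27 family encodes small hydrophobic proteins, and both of its genes were higher in CD8- DCs by similar amounts. Ifi27l2a was at 8.46 in CD8+ and 10.32 in CD8- DCs (3.63-fold). Ifi27 was at 6.46 in CD8+ and 8.12 in CD8- DCs (3.17-fold), and its other probe set gave a difference of -1.53.

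The Schlafen genes, a family tied to the control of lymphocyte and myeloid cell proliferation, were split. Slfn8 was at 5.95 in CD8+ and 7.49 in CD8- DCs (2.91-fold). Slfn2, which keeps T cells in quiescence, was at 8.92 and 10.24 (2.51-fold). Slfn1 was at 3.46, below the floor, in CD8+ and 4.85 in CD8- DCs, at least 2.01-fold higher there, and the mean of its 2 probe sets was below the floor on both arrays. Slfn5 was nearly equal, at 7.50 and 7.45, and its other measured probe set had the opposite sign (-0.10). Slfn1, Slfn2 and Slfn8 are consecutive protein-coding genes in RefSeq's order, and 1 gene lies between Slfn8 and Slfn5. Cross-hybridisation between Schlafen genes was not tested.

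Among the remaining single genes, Rtp4 stood at the far end. It encodes a chaperone that brings receptors to the cell surface, and it was at 2.90, below the floor, in CD8+ DCs and at 9.05 in CD8- DCs, at least 36.8-fold higher there. Its second probe set lay under the floor on both arrays (2.39 and 3.60), so the call rests on 1 probe set. Xaf1, a gene of a pro-apoptotic partner of the caspase inhibitor XIAP, was at 7.09 in CD8+ and 8.31 in CD8- DCs (2.33-fold). Its second probe set also lay under the floor on both arrays (2.77 and 2.94). Samd9l, an antiproliferative and antiviral gene, was at 9.42 and 9.83 in CD8+ and CD8- DCs. Lgals3bp, which encodes a secreted galectin-binding glycoprotein, was at 7.71 and 7.75. Ifi35 was slightly higher in CD8+ DCs, at 10.60 against 10.32, and its 3 probe sets differed by 0.18 to 0.28. Samd9l, Lgals3bp and Ifi35 therefore lay well above the floor on both arrays and under 2-fold, with differences of -0.41, -0.05 and 0.28.

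**Figure D3:**
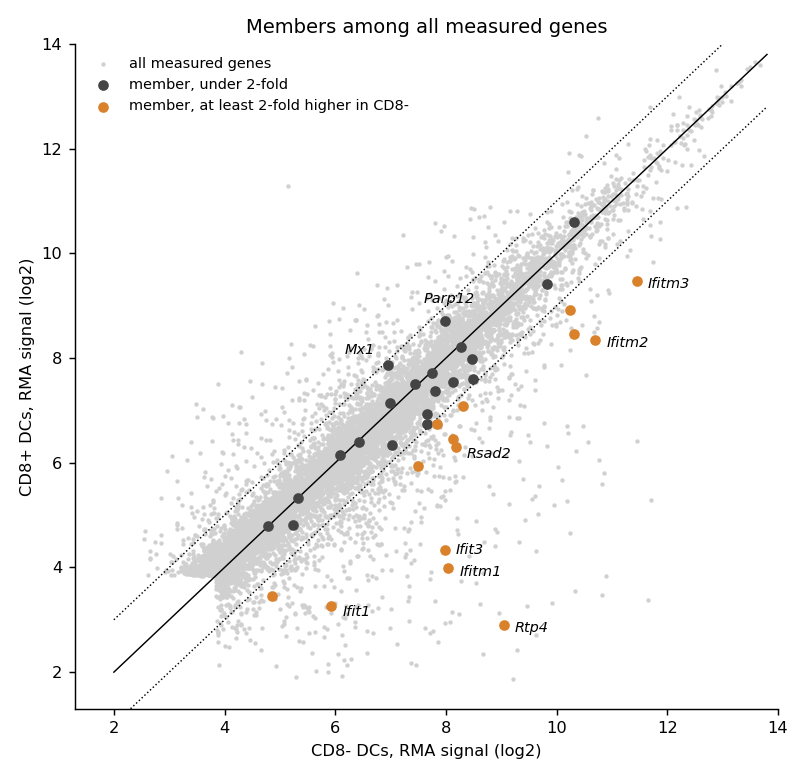
Log2 RMA signal on the CD8+ array (vertical axis) against the CD8- array (horizontal axis) for all 11404 measured genes (grey) and the 34 measured members (orange, past 2-fold on the CD8- side, and dark grey, under 2-fold), with equality as a solid line and 2-fold as dotted lines. Rtp4, Ifitm1, Ifit3 and Ifit1 lie far below the line with CD8+ signals between 2.90 and 4.33, and Mx1 and Parp12 lie above it within 2-fold.

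The enzymes that act on RNA differed little, apart from the exonuclease. Isg20, an exonuclease that degrades single-stranded RNA, was at 6.74 in CD8+ and 7.84 in CD8- DCs (2.14-fold). Eif2ak2, which encodes the double-stranded RNA-dependent kinase PKR, was at 6.39 and 6.43, with 3 probe sets between -0.34 and 0.10. Adar, which encodes an enzyme that edits adenosine to inosine in double-stranded RNA, was at 7.14 and 6.99, with 3 probe sets between -0.28 and 0.16. Its small difference was -0.13 when all its probe sets were averaged. The direction of Eif2ak2 and Adar is therefore not settled by these arrays.

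The ISG15 system attaches a ubiquitin-like protein to newly made proteins, and its genes, with the PARP and DTX3L genes of ADP-ribosylation and ubiquitination, were under 2-fold on the probe sets that stand for the 6 measured genes. So were most of all measured genes, with 5.97% past it on the CD8- side and 3.55% on the CD8+ side. Of the 6, Usp18, the protease that removes ISG15 and dampens interferon receptor signalling, came closest, at 7.61 in CD8+ and 8.48 in CD8- DCs (1.84-fold). Herc6, the mouse ligase for ISG15, was at 6.35 and 7.03, and its 4 probe sets agreed within -0.80 to -0.56. Parp14 was at 6.93 and 7.65 (1.65-fold), but its other probe set gave -1.31, and their mean, -1.01, was past 2-fold. Parp9 (7.99 and 8.47) and its partner Dtx3l (8.22 and 8.27), whose proteins form a complex, were nearly equal or slightly higher in CD8- DCs. Parp12 went the other way, at 8.70 in CD8+ and 7.98 in CD8- DCs (1.65-fold higher in CD8+ DCs). Isg15 itself had 1 probe set, shared with the gene Gm9706, which was at 6.46 in CD8+ and 7.64 in CD8- DCs, a difference of -1.18 that cannot be assigned to Isg15 alone.

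The Mx genes encode dynamin-like GTPases that trap viral particles, and C57BL/6 mice are known to carry a defective Mx1 gene. Mx1 had the largest difference in favour of CD8+ DCs, at 7.88 against 6.96 (1.89-fold), which stayed under the threshold. Mx2 had the value 5.33 on both arrays, and 2.56% of all measured genes had the same value on both. Of the speckled-protein genes, Sp100 was at 7.54 in CD8+ and 8.13 in CD8- DCs, a difference of -0.59, with its second probe set at -0.15. Sp110 was at 6.15 and 6.09, and its difference of 0.06 turned to -0.13 on its other measured probe set. None of these genes was past 2-fold in either direction. Most of all measured genes were not past it either, with 5.97% past it on the CD8- side and 3.55% on the CD8+ side.

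The PYHIN genes encode nuclear and cytosolic proteins that bind nucleic acids, and on this array most of their probe sets read several genes at once. The single-gene probe set of Ifi203 had the value 4.79 on both arrays, and identical values were found for 2.56% of all measured genes. By contrast, a probe set shared by Ifi203, its pseudogene and an unnamed locus was at 6.14 in CD8+ and 9.08 in CD8- DCs, a difference of -2.94, and a second that also reads another locus differed by -2.82. The last probe set of this kind lay under the floor on both arrays (2.82 and 3.65). The probe set shared by Ifi204, Ifi205, Ifi211 and Mndal went the other way, at 10.70 in CD8+ and 9.78 in CD8- DCs (0.91), as did the one shared by Ifi205 and Ifi211, at 11.98 and 11.13 (0.85). Probe sets of this family thus differed in opposite directions, and which gene each signal comes from was not resolved.

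**Figure D4:**
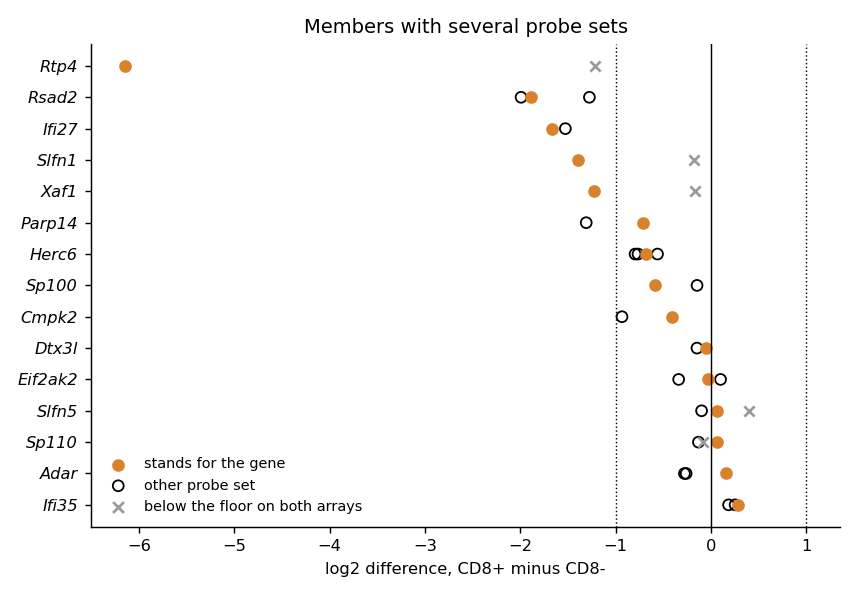
Log2 difference, CD8+ minus CD8- (horizontal axis), of every single-gene probe set of the 15 members with more than 1, with the probe set that stands for the gene in orange, others as open circles and those below the floor on both arrays as crosses. The 3 probe sets of Rsad2 all lie beyond 2-fold, and those of Adar, Eif2ak2, Sp110 and Slfn5 lie on both sides of 0. The second probe sets of Rtp4, Slfn1 and Xaf1 and a further probe set each of Sp110 and Slfn5 are below the floor.

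The 6 measured genes of type I interferon signalling had a median difference of -0.22, and none was past 2-fold. Most of all measured genes were under 2-fold too, with 5.97% past it on the CD8- side and 3.55% on the CD8+ side. The list held 7 genes, of which 1 was not analysed here. The receptor genes were at 7.96 in CD8+ and 7.84 in CD8- DCs for Ifnar1 and at 8.13 and 8.75 for Ifnar2. The 3 measured probe sets of Ifnar2 differed by -0.97 to -0.63. The kinase genes were at 8.45 and 8.75 for Jak1 and at 8.18 and 7.33 for Tyk2, whose 2 probe sets differed by 0.85 and 0.18. The factor genes were at 6.39 and 6.69 for Stat2 and at 8.37 and 8.51 for Irf9. The genes of the interferon-gamma receptor and its kinase were also under 2-fold, at 10.94 and 10.37 for Ifngr1, 8.11 and 8.25 for Ifngr2, and 9.52 and 10.06 for Jak2.

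Of 5 negative regulators, 2 passed 2-fold on the CD8- side, as did 5.97% of all measured genes. Socs3, an inhibitor of Jak kinases, was at 5.17 in CD8+ and 7.90 in CD8- DCs, with 3 probe sets between -2.72 and -0.995. The phosphatase gene Ptpn6 (SHP-1) was at 8.81 and 10.68 (3.66-fold). Ptpn2 (8.67 and 8.74) and Pias1 (7.63 and 7.89) were nearly equal, and Socs1 was close to the floor on both arrays (4.08 and 3.67). Of 9 interferon genes with a probe set, 7 were below the floor on both arrays, among them Ifnb1 (2.82 and 2.50) and Ifng (2.41 and 2.33), while Ifna1 (4.16 and 3.92) and Ifna9 (4.08 and 3.99) lay just above it on both. In the other interferon-stimulated families, the counts of genes past 2-fold on the CD8- side, with values under the floor raised to it, were 3 of 7 measured Oas genes, 3 of 7 GTPases, 2 of 4 sensors and 0 of the 3 regulatory factors Irf1, Irf2 and Irf7. Of these, Oasl2, Gbp3 and Gbp7 reached the floor in CD8- DCs alone, as did Oas1c (2.91 and 4.30), which was past 2-fold as measured but has a lower bound of 1.37-fold. None of these genes passed 2-fold on the CD8+ side. With values under the floor raised to it, the shares of all measured genes past 2-fold were 5.55% on the CD8- side and 3.25% on the CD8+ side. As measured, these shares were 5.97% and 3.55%.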

How the data were processed

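Biotin-labelled cRNA from total RNA of 2 sorted DC populations was hybridised to Affymetrix arrays, 1 per population. The authors deposited log2 signal values per probe set, made with RMA per the submitters' processing notes. Its version, and which arrays it normalised together, are not stated in the labels. Quantile normalisation hides a shift shared by most transcripts. The table holds 45101 probe sets, of which 7.30% have the same value on both arrays. A further 64.4% have a difference, of any size, that recurs exactly, to 8 decimals, in another probe set, so many differences come in steps. Differences past 2-fold can recur too, since Slfn1 and Oas1c were both at -1.397. No detection calls were used.

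The platform annotation gave a single symbol for 34958 probe sets, several for 932 and none for 9211, and symbols were updated by gene identifier through RefSeq. The probe set with the highest mean stood for a gene. The floor was the median of all values (3.85). With 1 array per population no test was made, and genes were described by a 2-fold threshold, beside the same share over all 11404 measured genes. All 38 listed genes are named, and the members and lists were chosen with earlier results of these data known. Promoters came from RefSeq on GRCm38.p6, 250 bases before each start.

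Other settings tried were thresholds of 1.5-fold and 4-fold, the mean of a gene's probe sets, dropping probe sets named _x_at or _s_at, values under the floor raised to it, a filter at the 75th percentile or none, arrays centred on their medians, and removal of a lowess trend (span 0.3). Calculations used Python 3.11.15, numpy 2.4.6, pandas 2.3.3 and statsmodels 0.14.6, and were tested on simulated data. Precision is limited by there being 1 array per population.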

Additional observations from a re-analysis of the deposited data

How the results depend on the processing

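The count of genes at least 2-fold higher in CD8- DCs was 14 of 34, where 5.97% of all genes passed. It was also 14 with each array centred on its median (6.28% of all genes), with the lowess trend subtracted (6.27%) and without a filter (14 of 35, 3.8%). The count was again 14 with values under the floor raised to it (5.55%) and without probe sets named _x_at or _s_at (6%). It was 13 of 33 with all probe sets of a gene averaged (5.37%) and 12 of 29 with the filter at the 75th percentile (7.37%). At 4-fold it was 5 (2.1%). The count higher in CD8+ DCs was 0 under each of these settings, where between 0.859% and 4.45% of all genes passed. It was 2 (Mx1 and Parp12) at 1.5-fold, where 8.49% of all genes passed. The median difference stayed between -0.73 and -0.68. Averaging probe sets took Xaf1 to -0.70, under 2-fold, Slfn1 below the floor on both arrays, Parp14 to -1.01, past it, and Rtp4 to -3.68, while the signs of Adar (-0.13) and Sp110 (-0.05) turned. With values under the floor raised to it, Rtp4 was at -5.20, Ifit1 at -2.08 and Slfn1 at -1.01. Signal near the floor limits the folds of these 3 genes and of Ifitm1. No paired analysis was possible because each population has 1 array.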

Other observations

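Several of these genes lie beside each other in the genome, by the gene order of RefSeq, and neighbours were not always alike in their differences. Ifitm2, Ifitm1 and Ifitm3 are consecutive protein-coding genes, with differences of -2.35, -4.06 and -1.97. Ifi27l2a (-1.86) and Ifi27 (-1.66) are consecutive, as are Slfn8 (-1.54), Slfn2 (-1.33) and Slfn1 (-1.40). Ifit2 (-0.91) and Ifit3 (-3.64) are consecutive too, with 1 of them past 2-fold, and so are Rsad2 (-1.88) and Cmpk2 (-0.41), whose probe sets range from -1.99 to -1.28 and from -0.93 to -0.41. Parp14 (-0.72), Dtx3l (-0.05) and Parp9 (-0.48) are consecutive and were all under 2-fold.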
